A study of Mus musculus with 7 samples.

Results

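Of 7 libraries of pancreatic islet messenger RNA, 2 are described by the name of a treatment, GFP and Adipsin, and the other 5 by db numbers, db4, db5, db6, db14 and db15. The 2 treatment-named libraries, 1 of each treatment, were compared here with the 5 db-numbered libraries over all genes, with treatment as a covariate. The split follows the style of the description and nothing else. It was chosen by measured values of these same counts, in which the 2 libraries shared an extreme of the first principal component, so the differences below describe the split and are no independent support for it. What sets the 2 apart is not stated in the labels.

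All animals were db/db mice, whose leptin receptor is defective and which grow obese and diabetic. They received an adeno-associated virus (AAV) for green fluorescent protein (AAV-GFP) or for adipsin (AAV-Adipsin), 4 weeks before the islets were taken. The labels call each mouse a biological replicate, and islets were cultured for 12 hours before RNA was extracted. AAV-GFP comprised the library GFP with db4, db5 and db6, and AAV-Adipsin the library Adipsin with db14 and db15. Per the series' design text, serum glucose was still similar in both treatments 1 month after transduction. RNA was isolated with small-scale and standard column kits, and the labels say neither which library used which nor the age of the mice or a batch, so the style of description cannot be told apart from whatever else these 2 libraries share. No mouse without the db/db genotype and no uncultured islet is among the libraries.

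NF-kB proteins are transcription factors that inhibitor proteins hold in the cytoplasm until receptors for TNF, interleukins or microbial products trigger the breakdown of the inhibitors. Their targets include chemokines, adhesion molecules and enzymes, and also the inhibitors and the A20 protein that end the signal. Islet cells respond to inflammatory cytokines in culture through this pathway, with inducible nitric oxide synthase, encoded by Nos2, as a familiar target in beta cells. Mature beta cells are marked by insulin, by the hormone urocortin 3 and by receptors for gut hormones, among them the GIP receptor.

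Both promoters that follow belong to genes given with the comparison, Ccl20 and Tnfaip3. They are shown because a form of the NF-kB motif lies close to a start that RefSeq gives for the gene. They are the 250 bases before that start, 5′ to 3′, on GRCm38.p6, with the match in capitals. The RefSeq start can differ from the end of the gene span given below, as it does for Tnfaip3.
Ccl20, chr1:83116516-83116765, plus strand: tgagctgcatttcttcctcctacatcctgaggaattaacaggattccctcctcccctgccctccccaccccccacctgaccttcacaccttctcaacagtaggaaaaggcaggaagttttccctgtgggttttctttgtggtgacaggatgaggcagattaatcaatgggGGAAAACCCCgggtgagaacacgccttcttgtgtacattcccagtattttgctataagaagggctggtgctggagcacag
Tnfaip3, chr10:19015411-19015660, minus strand: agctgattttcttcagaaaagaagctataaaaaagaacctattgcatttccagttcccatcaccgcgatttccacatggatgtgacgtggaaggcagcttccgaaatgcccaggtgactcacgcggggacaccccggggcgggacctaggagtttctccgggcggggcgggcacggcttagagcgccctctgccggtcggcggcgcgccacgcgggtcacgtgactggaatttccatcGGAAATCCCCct
The motif searched, on both strands, was GGG, then any 3 bases, then TTCC, and 5.56% of the 32851 promoter windows of 300 bases in the RefSeq table hold it. The Ccl20 match, GGAAAACCCC, begins at position -80 from the start, and the Tnfaip3 match, GGAAATCCCC, at position -12, both as the motif reads on the opposite strand. A further match in the Tnfaip3 window begins at position 34, past the printed stretch, and a second Tnfaip3 start has one at position -90. No match was found in the windows of Birc3 and Ucn3, and Nos2, Ripk2 and Gipr were not matched to the table. A window was found for 76.4% of the genes called lower below and 71.5% of all genes tested, so more than 1 in 5 are missing from each and the share of called genes with the motif is not read as a result. A match is a run of letters and not a measured binding site.

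Total counts were 43997400 in GFP and 38339275 in Adipsin and ran from 29601707 to 39328690 in the db-numbered libraries. The first principal component, with 40.4% of the variance, placed GFP at -42.2 and Adipsin at -39.9, and the db-numbered libraries between -5.1 (db4) and 43.3 (db6). Counts of GFP and Adipsin differed by a chi-square of 9.44 per gene, against 20.1 to 89.5 in the other pairs of libraries. The 2 are therefore alike but not 1 library deposited again. Cfd, the gene of adipsin, had 3965 counts in Adipsin and 1 in GFP, 839 in db14 and 1481 in db15, and 0 in db4, db5 and db6, which matches every treatment label. With style as a covariate it was the 1 gene called by treatment (0.00587%), and by style it was higher by 1.7 (SE 0.18), a value that rests on Adipsin against db14 and db15. Ins2, an insulin gene, took 13.2% of counts in GFP, 13.8% in Adipsin and 11% to 13.3% in the others. Mitochondrially encoded transcripts took 1.2% and 1.1% in GFP and Adipsin, below the 1.41% to 2.60% of the db-numbered libraries. Genes of acinar cells, the exocrine cells that make digestive enzymes, took 0.681% and 0.508%, within the 0.353% to 2.26% of the others. When all libraries were thinned to 1 total, 23375 and 23069 genes were detected in GFP and Adipsin, more than the 21840 to 22847 elsewhere. Among protein-coding genes, those called higher below had a median GC content of 53.9% and those called lower 47.7%, against 49.9% of all tested. The part of RNA quality, library preparation or base composition in the differences was not tested.

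The inflammatory genes Nos2, Ccl20, Steap4, Lcn2 and Cxcl1 were among those called lower by the largest amounts in the treatment-named libraries, and Gipr, Gcgr, Slc30a8 and Ucn3 were called higher by smaller amounts. These are extremes of their groups: 17 of 34 NF-kB regulators, 6 of 18 chemokines, 14 of 40 interferon-stimulated genes and 5 of 30 genes of interleukin, TNF and Toll-like receptor signalling were called lower. Of 17024 genes tested, 927 were called lower, that is, had an edgeR adjusted p under 0.05, which is 5.45%, and 679 were called higher, which is 3.99%. The larger differences were mostly downward. At least 2-fold differences were found in 194 of the genes called lower and 86 of those called higher, and at least 4-fold differences in 92 and 14. Without any test, 3170 genes (18.6%) lay lower in both treatment-named libraries than in every db-numbered one and 3171 (18.6%) lay higher. Higher calls made up 42.3% of all calls, and 54.3% with upper-quartile scaling, where 863 genes were called higher and 725 lower.

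The calls rest on few libraries. Without GFP, 44 genes were called lower and 1 higher, and without Adipsin 50 and 8. Leaving out db5 gave 419 and 264, db14 243 and 103, db15 306 and 195, and db4 602 and 433, while 2405 and 1971 were called without db6. In all, 39 genes were called lower with every library in and again without each of the 7 in turn, with a median log2 difference of -2.16, and 0 genes were called higher in all of these fits. Of the 91 called genes named here by rule, 18 are among them: Nos2, Ccl20, Ripk2, Tnfaip3, Birc3, Zc3h12a, Relb, Csf1, Gadd45b, Ccl28, Tlr2, Steap4, Vnn3, Cfb, Gbp4, Gbp6, Parp14 and Oasl2. The other 73 lost the call without GFP, and 68 of them also without Adipsin. The 5 called without Adipsin were Gipr, Cxcl1, Rgs11, Pcsk4 and Mvd.

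The difference between the styles was then set out in each treatment on its own. GFP was set against db4, db5 and db6, and Adipsin against db14 and db15, so the 2 differences share no library. Over the 17024 genes their Pearson r was 0.64 and Spearman's rho 0.63, and 77% of genes had the same sign in both. Genes are not independent replicates, and the 2 libraries were picked for lying together, so these values draw on those used for the choice and support nothing. The same holds for the interaction of style with treatment, which called 0 genes in edgeR (0%), with 157 at an unadjusted p under 0.05 (0.922%). DESeq2 and limma-voom also called 0, with 101 and 185 genes at an unadjusted p under 0.05. Only 1 treatment-named library stands behind each treatment in this test, and a miss does not show that the differences are equal. Within AAV-GFP alone edgeR called 0 genes by style, with 1644 at an unadjusted p under 0.05, and within AAV-Adipsin alone it called 617 lower and 414 higher. Each of these fits sets 1 library against 3 or 2, assumes that the lone library varies like the others, and in AAV-Adipsin leaves 1 residual degree of freedom. For Nos2 the log2 difference was -6.60 in AAV-GFP and -7.76 in AAV-Adipsin, and for Ripk2 it was -2.22 and -2.23.

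**Figure D1:**
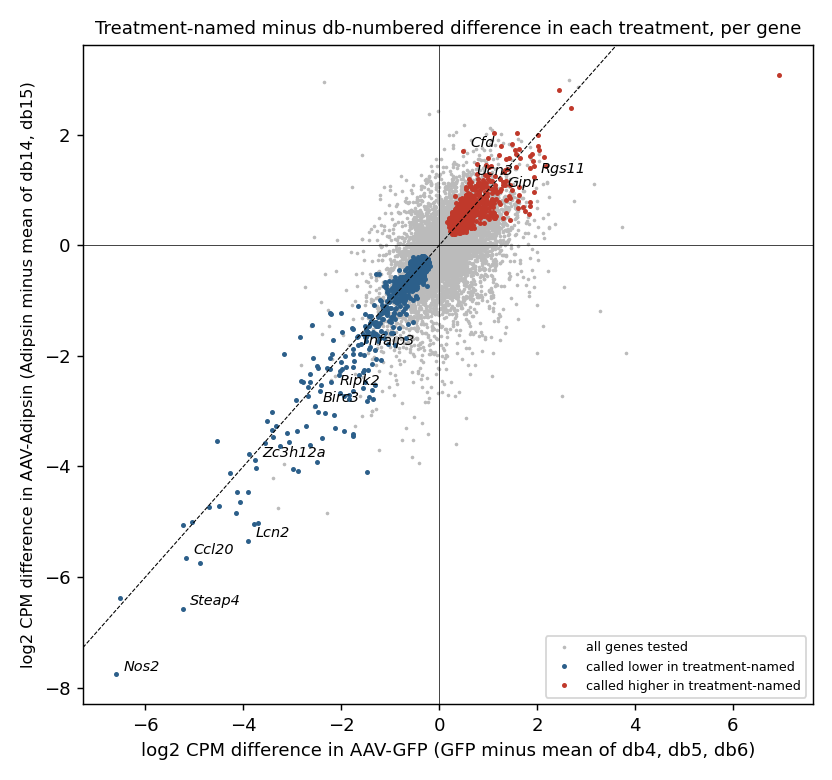
Each point is 1 of the genes tested, by its log2 CPM difference between GFP and the mean of db4, db5 and db6 (horizontal) and between Adipsin and the mean of db14 and db15 (vertical). Genes called lower in the treatment-named libraries are blue, those called higher red and all others grey, and the dashed line marks equal differences. Nos2, at -6.60 and -7.76, lies at the far lower left. The red point at the upper right is Igha, an immunoglobulin gene with 306 counts in GFP and 16 in Adipsin.

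The genes given with the comparison were picked for their difference, so their values describe it. Levels are in CPM, read counts scaled to a common library total, and differences are fitted log2 values, treatment-named minus db-numbered, with the standard error (SE). Nos2 (chromosome 11, 78920787 to 78960254, plus strand, GRCm38) stood at 0.222 CPM in GFP and 0.104 CPM in Adipsin. In db4, db5, db6, db14 and db15 it stood at 29.3, 21.4, 30.6, 34.9 and 34.0 CPM. Counts were 10 and 4 against 822 to 1361, and the log2 difference was -7.47 (SE 0.31). Nos2 was thus near its detection limit in both treatment-named libraries and well expressed in all others.

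Ccl20 encodes a chemokine that draws lymphocytes and dendritic cells through the receptor CCR6 (chromosome 1, 83116766 to 83119167, plus strand). It had 2 counts in GFP and 1 in Adipsin, against 99, 149, 103, 117 and 173 in db4, db5, db6, db14 and db15. Scaled by depth, the 641 counts against 3 amount to a rate 103 times as high (95% interval 35.1 to 501, for counting error only). Again both treatment-named libraries lay far below every db-numbered one.

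The remaining genes of the pathway among those given were lower by smaller factors. Birc3, a ubiquitin ligase that acts at the TNF receptor (chromosome 9, 7848699 to 7873186, minus strand), had 17.4 and 14.3 CPM in GFP and Adipsin. Its values in db4, db5, db6, db14 and db15 were 108, 86.7, 110, 109 and 105 CPM, for a log2 difference of -2.71 (SE 0.14). Ripk2, the kinase that relays signals from the NOD receptors (chromosome 4, 16122733 to 16163647, minus strand), had 14.5 and 14.3 CPM against 75.4, 60.4, 67.6, 66.3 and 68.0 CPM, a difference of -2.23 (SE 0.10). The groups are far apart and tight for both genes. Tnfaip3 encodes A20, which switches NF-kB signalling off (chromosome 10, 19000910 to 19015657, minus strand), and had 7.80 and 7.95 CPM against 27.8, 25.6, 26.0, 32.2 and 30.2 CPM. Its difference was -1.86 (SE 0.09). The window printed above holds the motif at position -12 from a RefSeq start. That window runs from 19015411 to 19015660, so all but its outermost bases lie inside the gene span given here.

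Gipr and Ucn3 went the other way. Gipr, the receptor for the gut hormone GIP (chromosome 7, 19156061 to 19166127, minus strand), stood at 30.6 CPM in GFP and 23.4 CPM in Adipsin, against 13.5, 13.4, 11.9, 10.6 and 13.1 CPM in db4, db5, db6, db14 and db15. The lower treatment-named value was well above the highest db-numbered one, and the difference was 1.12 (SE 0.11). Ucn3, a peptide that beta cells release to drive somatostatin secretion (chromosome 13, 3940688 to 3945349, minus strand), stood at 205 and 235 CPM against 146, 160, 104, 96.5 and 109 CPM. Here db4 and db5 lay nearest to the treatment-named libraries, the difference was 0.88 (SE 0.19), and the call was lost without GFP, Adipsin, db14 or db15.

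**Figure D2:**
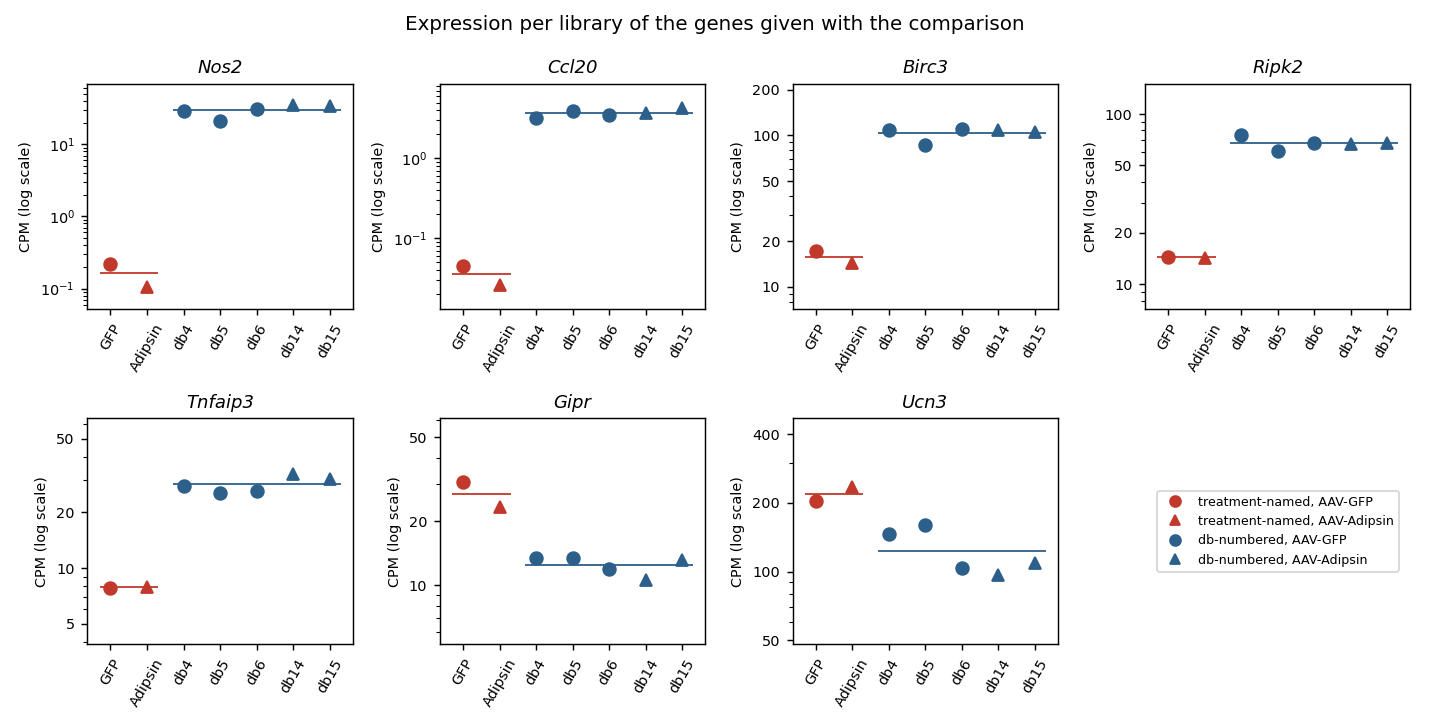
CPM on a log axis for the given genes in each library, with 1 point per library, the treatment-named libraries in red, the db-numbered in blue, AAV-GFP as circles and AAV-Adipsin as triangles, and a line at each group's mean. The groups do not overlap for any of these genes, with Nos2 and Ccl20 the widest apart.

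The genes with the largest downward differences were taken by a rule that also asked for a minimum level, complete separation and the same sign in both treatments. After Nos2, the second was Steap4, a metalloreductase of inflamed tissue, with 2.38 and 1.45 CPM in GFP and Adipsin against 83.1, 68.4, 133, 141 and 148 CPM in db4, db5, db6, db14 and db15, a difference of -5.87 (SE 0.46). Vnn3, a pantetheinase gene, had 0.333 and 0.414 CPM against 11.2, 9.47, 19.5, 15.3 and 14.7 CPM (-5.24, SE 0.39). Zc3h12a encodes regnase-1, an RNase that degrades messenger RNAs of cytokines, and was at 3.44 and 3.26 CPM against 47.2, 38, 58.6, 50.7 and 47.5 CPM (-3.85, SE 0.20). For each of these db5 was the lowest db-numbered library, and the treatment-named ones lay far under it.

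Gbp4 and Gbp6 are guanylate-binding proteins, GTPases induced by interferon. Gbp4 had 0.622 and 0.907 CPM against 31.5, 21, 25.1, 25.2 and 40.4 CPM (-5.27, SE 0.31), and Gbp6 had 1.11 and 1.5 CPM against 14.9 to 22 CPM (-3.89, SE 0.18). Both belong to a family of near-identical neighbours on chromosome 5, and the Gbp4 gene overlaps others of the family on the same strand, so the split of reads among them is uncertain.

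Cfb, complement factor B, is the substrate of adipsin in the alternative pathway of complement. It stood at 0.622 and 0.570 CPM in GFP and Adipsin, against 11.1, 8.77, 17.1, 18.2 and 17.7 CPM, a difference of -4.61 (SE 0.35) that was -4.14 within AAV-GFP and -4.85 within AAV-Adipsin. Cxcl1, a chemokine for neutrophils, had 0.355 and 0.492 CPM against 5.52 to 11.8 CPM (-4.40, SE 0.38), and Icam1, an adhesion molecule for leukocytes, 2.89 and 3.00 CPM against 23.4 to 70.7 CPM (-3.98, SE 0.52). AW112010, a transcript of immune responses, had 1.11 and 1.14 CPM against 7.34 to 18.8 CPM (-3.55, SE 0.41).

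Lcn2 and Chil1 split the db-numbered libraries as well. Lcn2, the iron-trapping protein lipocalin 2, was at 10 and 6.22 CPM in GFP and Adipsin, at 93.9 and 107 CPM in db4 and db5, and at 341, 295 and 218 CPM in db6, db14 and db15 (-4.68, SE 0.82). Chil1, a chitinase-like secreted protein, followed the same order, with 0.689 and 0.673 CPM, then 3.74 and 3.75 CPM, then 14.2, 12.3 and 11.7 CPM (-3.74, SE 0.73). Both calls were lost without GFP, Adipsin, db14 or db15.

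Under the same rule the upward differences were smaller. The 14 genes called higher by at least 4-fold fell outside it by their low level or their Gm symbol. Rgs11, a regulator of G protein signalling, came first among those that met it, with 111 CPM in GFP and 67.4 CPM in Adipsin against 24.3, 30.5, 32.4, 25.7 and 31.5 CPM in db4, db5, db6, db14 and db15, a difference of 1.62 (SE 0.17). Aard had 7.42 and 9.22 CPM against 2.28 to 3.32 CPM (1.52, SE 0.18), and Crocc, a protein of the ciliary rootlet, 67.1 and 68.5 CPM against 18.8 to 31.0 CPM (1.36, SE 0.17). Pcsk4, a proprotein convertase, had 52.6 and 32.7 CPM against 16.6 to 21.4 CPM (1.18, SE 0.14). Rgs11 and Pcsk4 were higher in GFP than in Adipsin, while Crocc was level in the 2.

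The others of this group were Ctcfl (1.6, SE 0.33), Col11a2 (1.25, SE 0.29), Oaz1-ps (1.24, SE 0.18), Snhg20 (1.21, SE 0.25), Cib3 (1.21, SE 0.14), Pck1 (1.20, SE 0.27), Lgals4 (1.19, SE 0.28) and Pisd-ps1 (1.19, SE 0.25). Oaz1-ps and Pisd-ps1 are annotated as copies of other genes, so their reads may belong to the parents. Pck1 encodes the cytosolic enzyme that commits oxaloacetate to glucose synthesis and had 6.20 and 4.95 CPM against 1.59 to 3.30 CPM. Every gene of this group lost its call without GFP, and all but Rgs11 and Pcsk4 also without Adipsin. Ctcfl, Col11a2, Snhg20, Pck1, Lgals4 and Pisd-ps1 also lost it without db5 and without db14. Without db4 the calls of Col11a2, Pck1, Lgals4 and Pisd-ps1 were lost, without db15 those of Ctcfl, Snhg20 and Lgals4, and without db6 that of Col11a2.

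**Figure D3:**
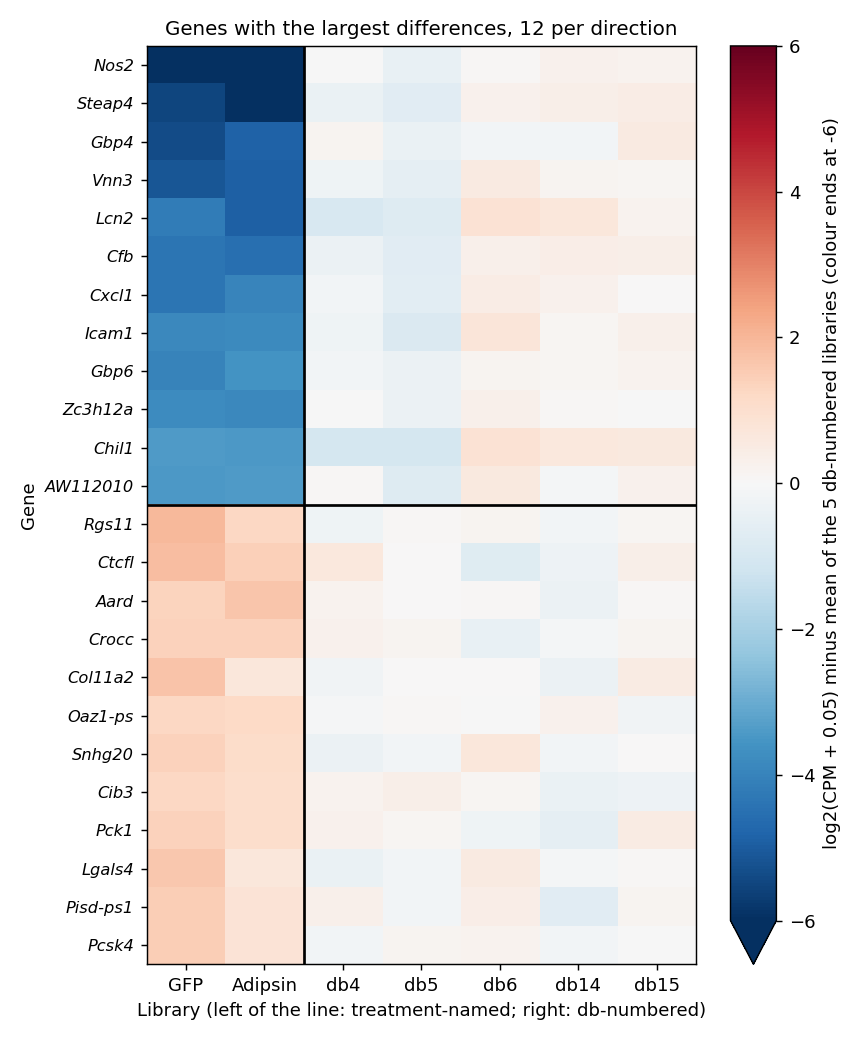
Rows are the 12 genes with the largest downward and the 12 with the largest upward difference by the rule, columns are libraries, and colour is log2(CPM + 0.05) minus the mean of the db-numbered libraries, with colours ending at -6. The first 2 columns are dark for the downward genes and pale red for the upward ones. For Lcn2 and Chil1, db4 and db5 lie below the db-numbered mean (faint blue) and db6, db14 and db15 above it (faint red).

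The pathway behind Nos2 was then followed through gene lists written with earlier results of these data known, so their counts describe the libraries. Among 34 NF-kB subunits, inhibitors and regulators, 17 were called lower and 0 higher, against 5.45% and 3.99% of all genes. Of these 34, 25 lay lower in both treatment-named libraries than in every other, against 18.6% of all genes, and the median difference was -0.53, against -0.006 over all genes. Besides Ripk2, Tnfaip3 and Zc3h12a, the rule named Relb, a subunit of the noncanonical pathway, with 11.7 and 10.5 CPM in GFP and Adipsin against 28.7 to 32.9 CPM (-1.45, SE 0.07). The count was 7 without GFP, 7 without Adipsin and 26 without db6.

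Among 35 NF-kB target genes other than chemokines, the median was -0.69. Of these, 15 were called lower and 0 higher, against 5.45% and 3.99% of all genes. They include Csf1, the growth factor of macrophages, at 14.1 and 15.8 CPM against 100, 72.5, 94.6, 95.7 and 81.9 CPM in db4, db5, db6, db14 and db15 (-2.58, SE 0.16), and Gadd45b, a stress-response gene, at 11.9 and 9.97 CPM against 22.4 to 28.1 CPM (-1.19, SE 0.10). The count was 4 without GFP, 4 without Adipsin, 9 without db14 and 9 without db15. Of 18 chemokines tested, 6 were called lower and 0 higher, against the same shares of all genes, and the chemokine median was -1.66. Ccl28, a chemokine of epithelia, had 120 and 114 CPM against 319 to 393 CPM (-1.6, SE 0.10), and Cxcl10, an interferon-inducible chemokine for T cells, 0.755 and 0.881 CPM against 4.86 to 9.01 CPM (-2.98, SE 0.34). The chemokine count was 2 without GFP and 3 without Adipsin, and 10 of the 28 chemokines listed had too few counts to test.

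Receptors and signal carriers upstream showed fewer calls than the NF-kB regulators and targets. Of 30 genes of interleukin, TNF and Toll-like receptor signalling, 5 were called lower and 1 higher, against 5.45% and 3.99% of all genes. The list's median was -0.16. Tlr2, a receptor for bacterial lipoproteins, was at 31.1 and 29.7 CPM against 81.3 to 95.5 CPM (-1.58, SE 0.09), and Irak3, an inhibitor of that signal, at 4.78 and 4.82 CPM against 10.7 to 13.0 CPM (-1.35, SE 0.12). Tab2, an adaptor of the TAK1 kinase, was lower by less (-0.33, SE 0.06), a call that only the removal of db6 left in place. The gene called higher was Nod1, a sensor of bacterial peptidoglycan, with 62.5 and 63.8 CPM against 39.9, 39.2, 33.0, 35.5 and 36.3 CPM (0.78, SE 0.09). Ripk2, which acts directly below this sensor, was thus lower where Nod1 was higher. The count of lower calls was 1 without GFP, 1 without Adipsin, 3 without db4, 2 without db5, 2 without db14, 2 without db15 and 9 without db6, where 3 genes were called higher.

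Of 20 genes of nitric oxide and arginine metabolism, 2 were called lower and 2 higher, against 5.45% and 3.99% of all genes. The list's median was 0.08. Besides Nos2 the gene called lower was Odc1, the first enzyme of polyamine synthesis, at 111 and 99.9 CPM against 151 to 205 CPM (-0.79, SE 0.13). Spr and Qdpr, which make and recycle the tetrahydrobiopterin that nitric oxide synthases need, were called higher, Spr by 0.55 (SE 0.09) and Qdpr by 0.26 (SE 0.06). The low level of Nos2 was therefore not shared by the list. Calls of Odc1, Spr and Qdpr were lost without GFP, without Adipsin, without db14 and without db15, and that of Qdpr also without db4 or db5.

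Acute-phase and interferon-induced genes followed. Of 15 acute-phase genes tested, 4 were called lower and 0 higher, against 5.45% and 3.99% of all genes. The list's median was -1.54. Of the 15, 10 lay lower in both treatment-named libraries than in every other, against 18.6% of all genes. Besides Lcn2 and Cfb, the genes called were Lbp and Saa3, serum amyloid A3. Lbp, which presents bacterial lipopolysaccharide, stood at 0.311 and 0.285 CPM against 1.01 to 4.90 CPM (-3.29, SE 0.76). Saa3 had 1 count in the treatment-named libraries together and 311 in the others, a rate 150 times as high in the others (95% counting interval 26.7 to 5940). The count was 1 without GFP, 1 without Adipsin, 1 without db14 and 1 without db15.

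Of 40 interferon-stimulated genes, 14 were called lower and 0 higher, against 5.45% and 3.99% of all genes. The list's median was -0.72. Parp14, an ADP-ribosyltransferase, had 24.1 and 25.7 CPM against 53.7 to 73.8 CPM (-1.38, SE 0.09). Oasl2 had 11.3 and 12.7 CPM, against 23.7, 21.4 and 22.3 CPM in db4, db5 and db6 and 36.9 and 39.8 CPM in db14 and db15 (-1.27, SE 0.14). Gbp3 and Gbp2, further guanylate-binding proteins, had differences of -2.38 (SE 0.28) and -2.02 (SE 0.28). The mean log2 CPM of the list was 2.80 in GFP and 2.88 in Adipsin, 3.07, 3.26 and 3.44 in db4, db5 and db6, and 3.78 and 3.97 in db14 and db15, so db4 lay closer to the treatment-named libraries than to db15. The count was 2 without GFP, 2 without Adipsin and 6 without db5, db14 or db15.

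Of 16 genes of MHC class I antigen presentation, 11 were called lower and 0 higher, against 5.45% and 3.99% of all genes. The list's median was -0.42. Tapbp (tapasin), which loads peptides, had 253 and 270 CPM against 441 to 569 CPM (-0.88, SE 0.11). The immunoproteasome subunit Psmb10 (-0.77, SE 0.11), the proteasome activator Psme2 (-0.79, SE 0.12) and the trimming peptidase Erap1 (-0.45, SE 0.08) were lower by similar or smaller amounts. The count was 0 without GFP, 0 without Adipsin, 5 without db5, 4 without db14 and 3 without db15.

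**Figure D4:**
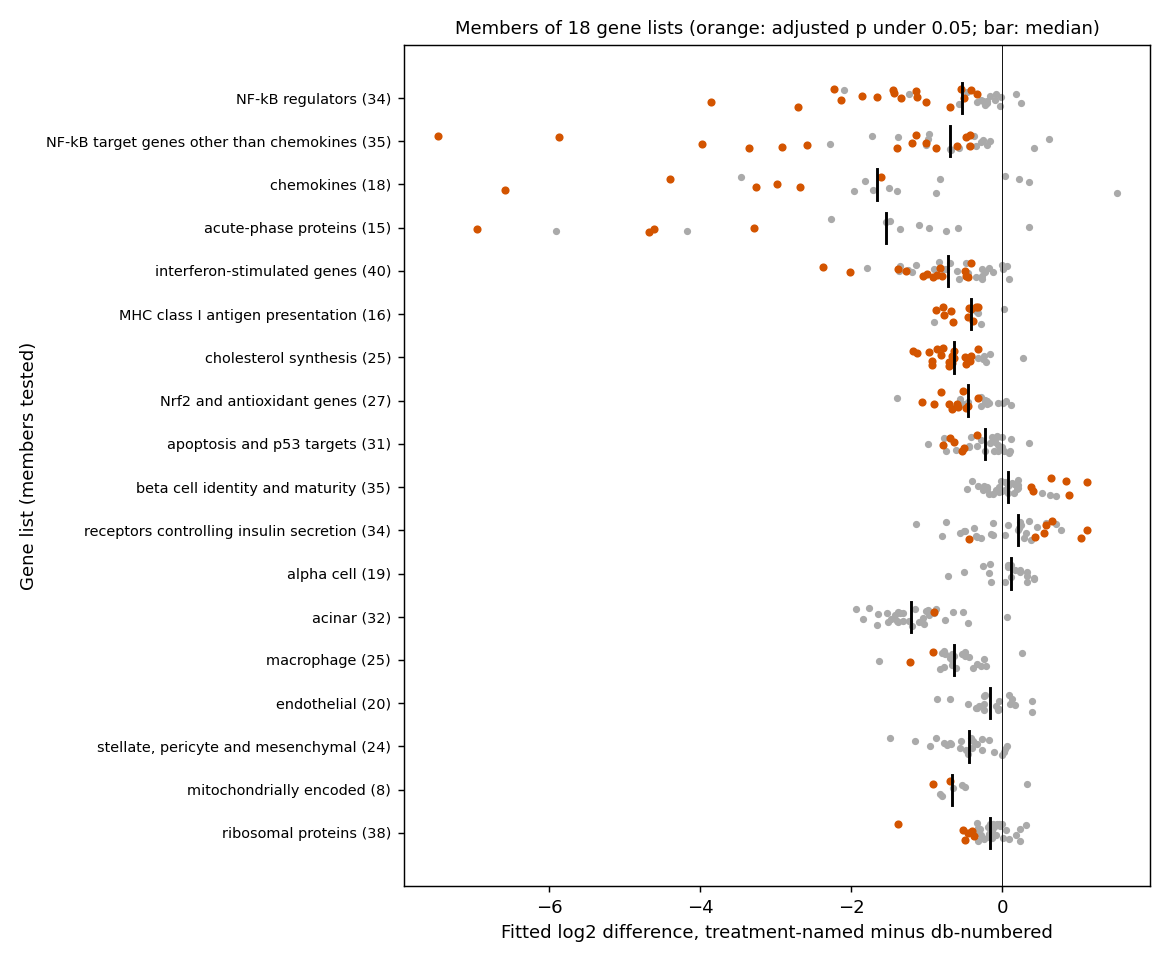
Each point is a tested member of a gene list by its fitted log2 difference, treatment-named minus db-numbered, with members called in either direction in orange, others in grey and a black bar at the list's median. The inflammatory lists extend far to the left, down to Nos2 at -7.47, cholesterol synthesis is compact near its median of -0.64, and beta cell and receptor genes have orange points to the right of 0.

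Of the metabolic lists, cholesterol synthesis held the largest share of called genes. Of 25 cholesterol synthesis genes, 19 were called lower and 0 higher, against 5.45% and 3.99% of all genes. The list's median was -0.64. Of the 25, 23 lay lower in both treatment-named libraries than in every other, against 18.6% of all genes. Mvd, which makes isopentenyl diphosphate, had 13.1 and 12.4 CPM in GFP and Adipsin against 28.7, 26.9, 31.0, 28.2 and 25.4 CPM in db4, db5, db6, db14 and db15 (-1.13, SE 0.09). Cyp51, the lanosterol demethylase, had 87.9 and 87.3 CPM against 148 to 171 CPM (-0.87, SE 0.08). Msmo1 and Sc5d, later enzymes of the route, differed by -0.97 (SE 0.10) and -0.67 (SE 0.07). Both groups were tight for these enzymes. The count was 0 without GFP, 1 without Adipsin and 12 without db14.

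Of 27 Nrf2 targets and antioxidant genes, 11 were called lower and 0 higher, against 5.45% and 3.99% of all genes. The list's median was -0.46. Hmox1, heme oxygenase 1, had 75.8 and 79.4 CPM against 127, 146, 160, 183 and 187 CPM (-1.06, SE 0.11). Gclc, which limits glutathione synthesis, had 89.1 and 91.4 CPM against 128 to 152 CPM (-0.67, SE 0.08). Srxn1, sulfiredoxin, differed by -0.46 (SE 0.06), and Nfe2l2, which encodes Nrf2 itself, by -0.59 (SE 0.09). The count was 0 without GFP, 0 without Adipsin, 5 without db14, 6 without db15 and 18 without db6.

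Of 19 genes of lipogenesis and the glucose-sensing factor ChREBP, 3 were called lower and 1 higher, against 5.45% and 3.99% of all genes. The list's median was -0.14. Scd2, a fatty acid desaturase, had 217 and 212 CPM against 385 to 441 CPM (-0.92, SE 0.08), and the malic enzyme Me1 49.1 and 53.6 CPM against 83.2 to 108 CPM (-0.81, SE 0.12). Scd1 had 3.38 and 3.32 CPM against 5.07 to 10.1 CPM (-1.21, SE 0.31). Mlxipl, the gene of ChREBP, was called higher, with 502 and 391 CPM against 271, 263, 235, 207 and 253 CPM (0.87, SE 0.10). These calls were all lost without GFP and without Adipsin, and that of Scd1 also without db5, db6, db14 or db15.

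Of 31 genes of apoptosis and the p53 response, 6 were called lower and 0 higher, against 5.45% and 3.99% of all genes. The list's median was -0.23. Trp53, the gene of p53, had 28.9 and 26.7 CPM against 37.3 to 45.7 CPM (-0.53, SE 0.08). Bid (-0.79, SE 0.15) and Zmat3 (-0.51, SE 0.10) were lower too. The count was 0 without GFP, 0 without Adipsin, 3 without db5, 1 without db14, 3 without db15 and 11 without db6.

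Of 35 genes of beta cell identity and maturity, 6 were called higher and 0 lower, against 3.99% and 5.45% of all genes. Their median was 0.08, and 13 were below 0, down to -0.47. Without any test, 10 lay higher in both treatment-named libraries than in every other and 5 lay lower, against 18.6% of all genes in each direction. Besides Gipr these include Slc30a8, the zinc transporter of insulin granules, at 268 and 283 CPM in GFP and Adipsin against 210, 184, 155, 163 and 176 CPM in db4, db5, db6, db14 and db15 (0.64, SE 0.11). Iapp, the amyloid peptide secreted with insulin, had 46200 and 45700 CPM against 31000 to 38600 CPM (0.40, SE 0.08), and Sytl4, a granule docking protein, 81.2 and 86.4 CPM against 61.1 to 70.0 CPM (0.38, SE 0.08). Insulin itself was not called: Ins2 differed by 0.20 (SE 0.09) and Ins1 by -0.40 (SE 0.19), with overlapping groups in both. The count was 0 without GFP, 1 without Adipsin, 3 without db5, 1 without db14 and 1 without db15, and Slc30a8, Iapp and Sytl4 were not called in either of the last pair.

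Of 34 receptors that control insulin secretion, 6 were called higher and 1 lower, against 3.99% and 5.45% of all genes. Their median was 0.21. Without any test, 13 lay higher in both treatment-named libraries than in every other, and 5 lay lower. Of all genes 18.6% did so in each direction. Gcgr, the glucagon receptor, had 90.8 and 76.1 CPM against 41.6, 38.7, 49.2, 34.8 and 40.7 CPM (1.04, SE 0.10). Gpr119, a lipid receptor, had 26.5 and 24.0 CPM against 13.6 to 18 CPM (0.66, SE 0.09), and Galr1, a galanin receptor, 25.3 and 27.7 CPM against 16.3 to 18.9 CPM (0.57, SE 0.09). The 1 called lower was Adra2a, the adrenergic receptor that inhibits insulin release (-0.44, SE 0.07), named here after its value was seen. Gipr belongs to this list and to the beta cell list. The count of higher calls was 0 without GFP, 1 without Adipsin and 11 without db6.

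In bulk islet RNA, fewer cells of a type and less RNA per cell cannot be told apart. Among the other endocrine cells, 0 of 19 alpha cell genes and 0 of 7 PP cell genes were called, and 1 of 14 delta cell genes was called lower. Of all genes 5.45% were called lower and 3.99% higher. The glucagon gene Gcg differed by 0.23 (SE 0.13), with 8410 and 8530 CPM in GFP and Adipsin against 5710 to 8080 CPM, without overlap. Of the 19 alpha cell genes, 4 lay higher in both treatment-named libraries than in every other and 0 lower, against 18.6% of all genes in each direction.

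Calls among markers of other cell types are set beside the 5.45% of all genes called lower and the 3.99% called higher. Of 32 acinar genes 1 was called lower (Prss3, -0.90, SE 0.22), with a median of -1.21, and 31 of the 32 were below 0. The acinar share of counts was 0.681% and 0.508% in GFP and Adipsin and 1.18%, 2.26%, 0.353%, 1.68% and 0.449% in db4, db5, db6, db14 and db15, so db6 and db15 lay below both. The call of Prss3 was lost without GFP, Adipsin, db5, db14 or db15. Of 22 duct genes 2 were called lower, Prom1 (-0.76, SE 0.11) and Cldn7 (-0.51, SE 0.09), with a median of -0.62, and 21 were below 0. Without any test, 8 duct genes lay lower in both treatment-named libraries than in every other, and 1 lay higher. Of all genes 18.6% did so in each direction. The duct share of counts was 0.300% and 0.275% in GFP and Adipsin against 0.314%, 0.391%, 0.355%, 0.468% and 0.331% in db4, db5, db6, db14 and db15, so the groups do not overlap. The part of duct cells in the differences was not tested. None of 20 endothelial or 24 stellate and mesenchymal genes was called, and the mesenchymal share of counts was 0.0373% and 0.0420% against 0.0251% to 0.0872%.

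Markers of immune cells were read beside the inflammatory genes, and their part in the differences was not tested. Of 25 macrophage genes 2 were called lower, the scavenger receptor Msr1 (-1.22, SE 0.27) and the chemokine receptor Cx3cr1 (-0.92, SE 0.23), with a median of -0.64. Of all genes 5.45% were called lower. Of the 25, 24 were below 0 and 9 lay lower in both treatment-named libraries than in every other, against 18.6% of all genes. Macrophage genes took 0.0277% and 0.0309% of counts in GFP and Adipsin, and 0.0316%, 0.0306%, 0.0450%, 0.0653% and 0.0341% in db4, db5, db6, db14 and db15, so by share Adipsin lay just above db5. By the mean log2 CPM of the list the groups do not overlap, with 2.68 and 2.82 in GFP and Adipsin against 2.93, 2.85, 3.42, 4.07 and 3.06. Both macrophage calls were lost without GFP, Adipsin, db4, db14 or db15, and that of Cx3cr1 also without db5.

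Of 18 neutrophil and monocyte genes 7 could be tested and 1 was called lower, Ltf (lactoferrin), with 0 counts in both treatment-named libraries and 196 in the others. Scaled by depth, the lower 95% limit of the ratio of rates was 25.4, for counting error only. All 7 were below 0, with a median of -1.31. S100a9 had 1 count in the treatment-named libraries together and 62 in the others, and S100a8 0 and 22, both neutrophil proteins that were not called. In db4 both had 0 counts as well, so the groups overlap for these genes. The mean log2 CPM of the list was -2.01 and -1.97 in GFP and Adipsin against -1.71 to 0.5 in the others. By share of counts the groups overlap, with 0.000332% and 0.000334% in GFP and Adipsin. That share was 0.000314% in db4, 0.000328% in db5 and up to 0.0016% in db14. Among the members not tested, Ly6g, Mpo, Elane and Retnlg had 0 counts in every library, and Mmp8 had at most 58 in any. Of 22 lymphocyte genes 8 could be tested and 0 were called.

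**Figure D5:**
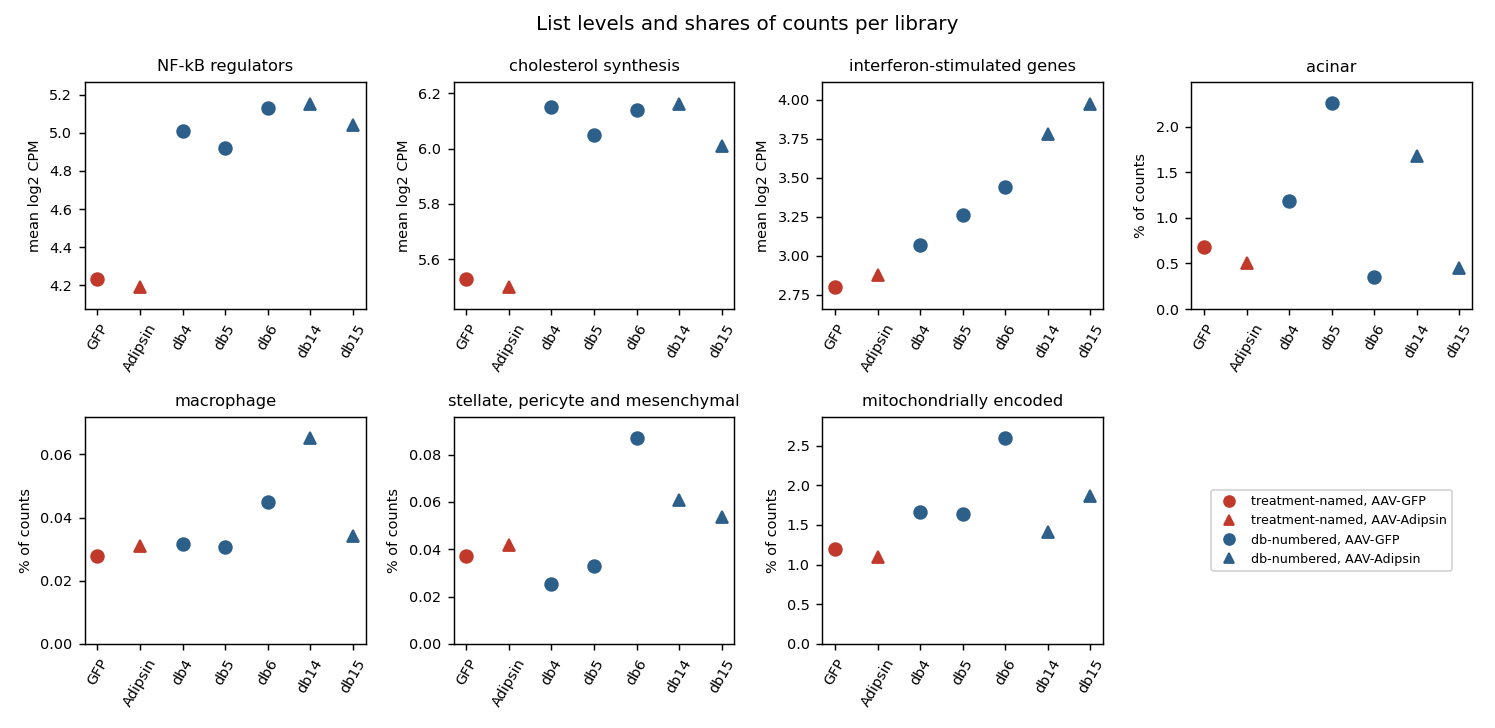
The upper row shows the mean log2 CPM of 3 gene lists and the acinar share of counts, and the lower row the shares of macrophage, mesenchymal and mitochondrially encoded genes, with 1 point per library (red treatment-named, blue db-numbered, circles AAV-GFP, triangles AAV-Adipsin). NF-kB regulators and cholesterol synthesis set the treatment-named libraries apart without overlap, and so does the mitochondrially encoded share. The acinar and mesenchymal shares overlap, and the macrophage share overlaps through Adipsin and db5, although the mean log2 CPM of macrophage genes, not drawn, does not overlap.

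Lists of stress genes and RNA classes are set beside the 5.45% of all genes called lower and the 3.99% called higher. Of 32 immediate early genes 3 were called lower, Fosl2 (-0.68, SE 0.10), Junb (-0.98, SE 0.20) and Ier3 (-1.14, SE 0.24), and 0 higher. Of 38 ribosomal protein genes 6 were called lower and 0 higher, with a median of -0.16, led by Rps29 at 45.3 and 45.0 CPM against 102 to 136 CPM (-1.38, SE 0.13). Of 8 mitochondrially encoded genes tested 2 were called lower, mt-Nd1 (-0.92, SE 0.23) and mt-Nd2 (-0.69, SE 0.17), with a median of -0.67 and db6 the highest for both. Without any test, 19 of the 38 ribosomal protein genes and 7 of the 8 mitochondrial genes lay lower in both treatment-named libraries than in every other. Of the same lists 2 and 0 lay higher, against 18.6% of all genes in each direction. Of 10 long noncoding RNAs 2 were called higher, Rian (0.45, SE 0.07) and Mirg (1.02, SE 0.18), which come from 1 imprinted locus. The calls of these named genes were all lost without GFP and without Adipsin. They were lost without db14 too for all but Fosl2 and Rps29, without db15 for Junb, Ier3, mt-Nd1 and mt-Nd2, without db5 for Ier3, Mirg, mt-Nd1 and mt-Nd2, and without db4 for mt-Nd1 and mt-Nd2, while 13 ribosomal protein and 7 mitochondrial genes were called lower without db6.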

How the data were processed

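Islet RNA of 7 db/db mice was sequenced from stranded messenger RNA libraries, per the labels' protocols. Reads were aligned with STAR to mm10 (GRCm38), per the submitters' processing notes. Neither the release of STAR nor the counter, its use of strand and the gene models are given in the sources used here, so overlapping genes may share reads. The authors deposited 1 table of raw read counts per gene, with 51912 identifiers, of which 51719 were matched to GENCODE M21 and 22479 had no count. With totals of 29601707 to 43997400, 3 counts correspond to 0.0682 to 0.101 CPM.

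The counts were tested in R 4.3.3 with edgeR 4.0.16 (filterByExpr by description style, TMM scaling, robust quasi-likelihood F test, two-sided), with treatment and style in the model over all 7 libraries. Benjamini-Hochberg adjustment ran over 17024 genes, with a threshold of 0.05. Log2 CPM carried a prior count of 2. DESeq2 1.42.0 and limma-voom (limma 3.58.1), other scaling and filters, composition covariates, thinning and removal of each library were alternatives. The fit was also run on simulated counts with the same dispersion for every gene and no treatment effect. That setting is unlike these libraries, so the run checks the code only and does not bear on the calls.

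The libraries compared, the gene lists and the naming rule were chosen with earlier results of these data known. The rule took 12 genes per direction (called, separated, same sign in both treatments, mean log2 CPM of at least 1, no Gm or Rik symbols), the genes given with the comparison, up to 4 members per list by smallest p, and Cfd, Ins2, Ins1 and Gcg as checks. Others are said to be chosen after their values were seen. Some genes that the rule took are not reported here.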

Additional observations from a re-analysis of the deposited data

Results flagged for a closer look

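Among the 5 db-numbered libraries, 144 values were searched for a library apart from the other four, with a gap over the whole range above 0.71, and 7 were found. Chance flags about 1 in 20 such groups. Birc3 was at 86.7 CPM in db5, below the others, though still far above both treatment-named libraries. The library db6 stood apart in 4 values. Its mean log2 CPM was 6.77 for nuclear-encoded oxidative phosphorylation genes and 3.15 for replication-dependent histones, both above the others, and 5.13 for Y-linked genes, below the others. Ins2 took 13.3% of its counts, between the 13.2% and 13.8% of GFP and Adipsin and above the other db-numbered libraries. Without db6, 2405 genes were called lower and 1971 higher in the treatment-named libraries. The erythrocyte list was at -0.33 in db4, below the others, and the list of genes that vary between inbred strains at 3.60 in db14, above the others.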

How the results depend on the processing

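The counts of genes lower and higher stayed within 1.5 times the 927 and 679 under RLE, upper-quartile and total scaling, without a filter, with a filter by treatment or on mean CPM, with limma-voom, without robust estimation, with style alone, with thinned counts and with an acinar covariate. They were 1428 and 1085 with DESeq2, 2382 and 1920 with a mesenchymal covariate, 0 and 0 in AAV-GFP alone, 617 and 414 in AAV-Adipsin alone, 197 and 69 at a threshold of 0.01, and 102 and 7 against a 1.5-fold difference. Without 1 library in turn they ran from 44 to 2405 lower and from 1 to 1971 higher. The main calls changed sign in 0 cases under any alternative. The interaction of style and treatment called 0 genes with DESeq2, limma-voom, no filter or no robust estimation, with 101, 185, 288 and 156 at an unadjusted p under 0.05. The causes of these changes were not tested. No paired analysis was possible because the title's number 1 marks both treatment-named libraries and no db-numbered one. Without a treatment-named library, or within 1 treatment, that arm has 1 library, assumed to vary like the others. Genes under the filter on low counts were not tested, and Nos2, Ccl20, Saa3 and Ltf had at most 10 counts in a treatment-named library, which leaves their fold differences imprecise.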

Other observations

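Immunoglobulin transcripts, which mark plasma cells and were chosen here after their values were seen, were unevenly spread over the libraries. Igha, the constant region of immunoglobulin A (chromosome 12, 113254830 to 113260236, minus strand), had 306 counts in GFP and 16 in Adipsin and 0 in every db-numbered library. Jchain, which joins immunoglobulin A molecules, had 75 counts in GFP, 7 in Adipsin and 1 to 7 in the others, and Igkc 166, 23 and 4 to 26. Ighm, the constant region of immunoglobulin M, went another way, with 2 counts in GFP, 25 in Adipsin and 2 to 35 in the others. The excess of Jchain and Igkc was thus in GFP and not in Adipsin.

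Guanylate-binding protein genes, 5 neighbours on chromosome 5 that were also noticed in the data, were among the 39 called lower with every library in and without each in turn. Gbp9 had 2.53 and 3.06 CPM in GFP and Adipsin against 24.3 to 35.6 CPM, Gbp10 0.333 and 0.466 CPM against 3.45 to 5.55 CPM, and Gbp8 6.91 and 8 CPM against 27.5 to 39.5 CPM. With Gbp4 and Gbp6 they form 1 cluster in which the annotated genes overlap, so they are not separate counts of the same pattern. The epithelial genes Ehf, a transcription factor (19.7 and 23.9 CPM against 84.3 to 125 CPM), and Pigr, which carries immunoglobulin A across epithelia (73.1 and 77.3 CPM against 168 to 248 CPM), were also among the 39.

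Of 23 circadian clock genes, Npas2 was called lower (-1.6, SE 0.20) and Per1 (0.59, SE 0.10) and Cry2 (0.44, SE 0.09) higher. Of all genes 5.45% were called lower and 3.99% higher, so the list is not read as different from them. Its median was 0.02, with 10 members below 0 and 13 above. Npas2 had 14.6 and 14.8 CPM in GFP and Adipsin against 28.8, 41.2, 40.6, 50.3 and 60.3 CPM in db4, db5, db6, db14 and db15, and Per1 39.1 and 37.2 CPM against 22.3 to 28.7 CPM. All 3 calls were lost without GFP and without Adipsin. The labels do not give the hour at which islets were taken or lysed.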
